A study of Mus musculus with 6 samples.

Results

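RNA of HK-2 cells, an immortalized line of human proximal tubular epithelium, was sequenced to compare cells that overexpress USAG-1 with control cells, and 10 genes that report on ERK signaling were followed here. They were chosen by name, with earlier results of these data known. They are the phosphatases DUSP4, DUSP5 and DUSP6, the Sprouty genes SPRY1, SPRY2 and SPRY4 with their relative SPRED1, the ETS factors ETV4 and ETV5, and PHLDA1. All 10 are among the 39234 genes of the deposited table, and all 10 passed the filter on low counts that left 18188 genes to test. The series holds 6 libraries, 3 of control cells and 3 of cells with USAG-1 overexpression. Both groups carry the genotype WT in the sample labels, which name no drug, hypoxia or time point. In the study, overexpression in cells was made by transient transfection of a plasmid, and the labels do not say whether control cells received the empty plasmid. Mouse is named as the species in the labels, but HK-2 and the identifiers of the table are human. The methods give biological replicates for most experiments without naming this one, and the labels do not say that the cultures were grown separately, so p-values measure the spread between these samples, which may be technical.

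ERK is the last kinase of a relay in which growth factor receptors switch on RAS, RAS recruits RAF, RAF phosphorylates MEK, and MEK phosphorylates ERK. Active ERK induces genes whose products dampen the same relay, and transcripts of these feedback genes are widely used as a readout of ERK output. In kidney tubules the pathway is best known from EGF receptor signaling, which accompanies regrowth of the epithelium after injury.

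The libraries held between 41236194 and 48699471 counts. A count of 0 allows a level of up to between 0.0616 and 0.0728 CPM in a library, taking 3 counts as the limit of counting error. Levels are CPM, counts relative to the size of the library, scaled by edgeR's TMM method. The overexpressed gene itself checked the labels: SOSTDC1, which encodes USAG-1, had 1.89, 1.62 and 1.41 CPM in control cells and 110, 89.5 and 103 CPM in USAG-1-overexpressing cells. Control replicate 3 stood apart from the other controls, at 54.3 on the second principal component where they scored -28.2 and -25.2, so results are also given without it. Markers of HK-2 epithelium such as PAX8 and KRT8 were abundant, with a summed level of 2234 to 2691 CPM in control and 2614 to 2712 CPM in USAG-1-overexpressing cells, and 5 of 10 tested markers were called (4 higher, 1 lower). Among genes that define the proximal tubule in the kidney, LRP2 had no count in any library and AQP1 and CUBN did not pass the filter, while the brush border genes GGT1 (85.1 to 117 CPM in control, 137 to 164 CPM with USAG-1 overexpression) and MME (14.9 to 19 and 33.2 to 34.2 CPM) were expressed and called higher, and ANPEP was expressed at 1.62 to 3.61 and 1.79 to 2.47 CPM and not called. All 12 markers of T cells were lower in USAG-1-overexpressing cells, with a summed level of 78.5 to 95.8 CPM in control and 9.50 to 12.7 CPM in USAG-1-overexpressing libraries. Of fibroblast markers 1 of 3 tested was called (LUM, higher), with sums of 39.8 to 41.4 and 56.0 to 58.0 CPM. Most of each sum was LUM itself, at 33.0 to 34.6 and 48.0 to 51.0 CPM. COL1A1 (log2 fold change 0.09) and PDGFRB (-0.39) were not called, and COL1A2 had no count in any library. Of 3 endothelial markers tested, 0 were called by edgeR's quasi-likelihood test, DESeq2 or limma-voom and 0 had an unadjusted p under 0.05 in edgeR, with sums of 4.43 to 7.09 and 2.93 to 6.10 CPM. Mitochondrially encoded genes took 4.80 to 5.59% of control counts and 1.50 to 1.55% of counts in USAG-1-overexpressing cells. With these mitochondrial genes left out of the counts, 9 feedback genes were called, the same as with them kept, in a fit that called 15.7% of all genes. The median log2 fold change of the 10 feedback genes was then 0.42, beside -0.02 over all genes. The part of the marker shifts in the results that follow was not tested, and in bulk RNA a change in the number of cells of a type cannot be told apart from a change of RNA per cell.

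Most feedback genes were modestly higher in USAG-1-overexpressing cells, and DUSP4 was lower. Of the 10 genes, 8 rose (DUSP5, DUSP6, SPRY2, SPRY4, SPRED1, ETV4, ETV5 and PHLDA1), 1 fell (DUSP4), and SPRY1 did not pass the threshold of an adjusted p under 0.05 in the quasi-likelihood test of edgeR, adjusted after Benjamini and Hochberg. Among all genes tested, 15.9% were called in either direction, 8.95% as higher and 6.91% as lower. In 9 of the 10 genes every library with USAG-1 overexpression lay above every control library, and in DUSP4 every one lay below, while among all genes tested the groups were apart in these directions in 19.4% and 18.1%. The median log2 fold change of the 10 genes was 0.42, beside -0.02 over all genes tested. As the list was chosen with earlier results of these data known, these values beside all genes are description and no test of the list. Without control replicate 3 the median was 0.41 and the same 9 genes were called, among 27.0% of all genes called in that fit. The number of calls varied with the library left out. Without replicate 2 of USAG-1 overexpression, only DUSP5, SPRY4, ETV5 and PHLDA1 were called, in a fit that called 5.98% of all genes. There were 6 calls without its replicate 3 (7.09% of all genes) and 7 without its replicate 1 (6.92%). There were 6 without control replicate 1 (10.2%) and 8 without control replicate 2 (8.74%). No gene of the 10 changed direction in any of the 15 alternative analyses.

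**Figure D1:**
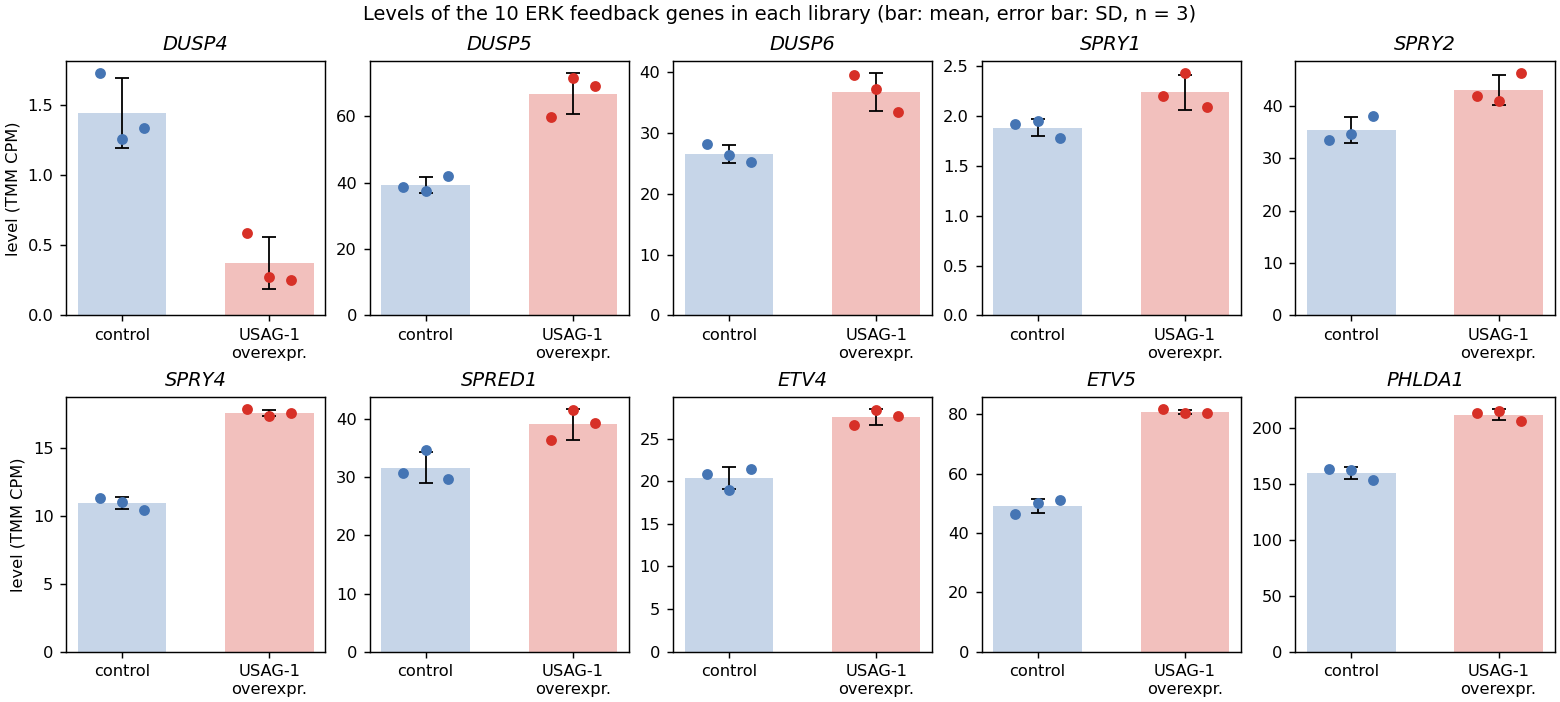
Levels of the 10 ERK feedback genes in TMM-scaled CPM (y axes start at 0 and differ between panels) in 3 control and 3 USAG-1-overexpressing libraries, with points for libraries, bars for means and error bars for SD. In 9 panels all points with USAG-1 overexpression lie above all control points, and for DUSP4 they lie below, between 0.255 and 0.588 CPM against 1.26 to 1.72 CPM.

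The dual-specificity phosphatases remove phosphate from both the threonine and the tyrosine that activate a MAP kinase. DUSP6 is the cytoplasmic phosphatase of ERK, DUSP5 acts on ERK in the nucleus, and DUSP4 is a nuclear phosphatase that acts on ERK and on other MAP kinases. The genes of this family split, with DUSP5 and DUSP6 higher and DUSP4 lower in USAG-1-overexpressing cells.

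DUSP5 (ENSG00000138166; hg38 chromosome 10, 110497907 to 110511533) had 38.6, 37.4 and 42.0 CPM in control replicates 1 to 3 and 59.9, 71.4 and 69.2 CPM in USAG-1-overexpressing replicates 1 to 3. The lowest library with USAG-1 overexpression stood well above the highest control. DUSP5 was 1.70-fold higher, with a log2 fold change of 0.76 (standard error 0.08, edgeR adjusted p = 0.00127), and 3.07% of all genes tested had a larger log2 fold change. DUSP5 was called in all 15 alternatives. Its pseudogene DUSP5P1 on chromosome 1 held 74 to 135 counts, against 1613 to 3120 for DUSP5, with a log2 fold change of -0.08 (adjusted p = 0.869). How reads shared by such copies were assigned is not given in the sources used here.

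DUSP6 (ENSG00000139318; hg38 chromosome 12, 89347235 to 89352501) had 28.2, 26.3 and 25.3 CPM in the control replicates and 39.6, 37.2 and 33.5 CPM in the USAG-1-overexpressing replicates. The groups did not overlap. DUSP6 was 1.38-fold higher (log2 fold change 0.47, standard error 0.08, edgeR adjusted p = 0.00877). The call was lost without replicate 2 of USAG-1 overexpression (log2 fold change 0.46, adjusted p = 0.0526) and held in the other 14 alternatives. A gene on the other strand within its span, ENSG00000274021, held only 5 to 27 counts.

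DUSP4 (ENSG00000120875; hg38 chromosome 8, 29333064 to 29350684) was the only one of the 10 genes that was lower. Its counts were 72, 62 and 57 in the control replicates and 27, 12 and 11 in the USAG-1-overexpressing replicates, or 1.72, 1.26 and 1.34 CPM against 0.588, 0.275 and 0.255 CPM. All libraries with USAG-1 overexpression lay below all controls. The exact Poisson 95% intervals of the counts did not meet either, since the highest count with USAG-1 overexpression allows 17.8 to 39.3 and the lowest control count 43.2 to 73.9 (counting error only). DUSP4 was 3.83-fold lower, with a log2 fold change of -1.94 (standard error 0.39, 95% interval -2.84 to -1.03, edgeR adjusted p = 0.0146), and 1.43% of all genes tested had a smaller log2 fold change. This interval lay wholly below 0 and those of the 8 genes that rose wholly above it. DUSP4 was the member with the widest interval, and its call was lost without control replicate 1 (-1.79, adjusted p = 0.0529) and without replicate 2 (-1.76, adjusted p = 0.0677) or replicate 3 (-1.72, adjusted p = 0.0596) of USAG-1 overexpression. It held without control replicate 3 (-1.98, adjusted p = 0.00993).

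DUSP4 is also known to be expressed in activated T cells, and the 12 T cell markers fell along with it: LCK, a kinase of T cell receptor signaling, had 8.53, 7.66 and 9.90 CPM in control and 1.63, 1.56 and 1.37 CPM with USAG-1 overexpression (log2 fold change -2.51, edgeR adjusted p = 1.63e-04). TRBC2, a constant region of the T cell receptor, had a log2 fold change of -3.21 (adjusted p = 2.54e-04). Whether the fall of DUSP4 is linked to these transcripts was not tested.

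Sprouty proteins sit upstream, where they interrupt signaling from receptors to RAS and RAF, and SPRED1 brings the RAS inhibitor neurofibromin to the membrane. SPRY1 is known in kidney development as a brake on RET signaling in the ureteric bud. All 4 genes had positive log2 fold changes, but their sizes differed, from 0.25 in SPRY1 to 0.69 in SPRY4.

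SPRY4 (ENSG00000187678; hg38 chromosome 5, 142310427 to 142326455) had 11.3, 11.0 and 10.5 CPM in the control replicates and 17.9, 17.4 and 17.6 CPM in the USAG-1-overexpressing replicates. The libraries within a group were nearly alike and the groups lay far apart relative to this spread. SPRY4 rose 1.61-fold (log2 fold change 0.69, standard error 0.09, edgeR adjusted p = 0.00219), and the call held in all 15 alternatives. Antisense and other genes on the opposite strand within its span held at most 3 counts each.

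SPRY2 (ENSG00000136158; hg38 chromosome 13, 80335976 to 80341126) had 33.4, 34.7 and 38.1 CPM in control and 42.0, 40.8 and 46.2 CPM in USAG-1-overexpressing cells. For SPRED1 (ENSG00000166068; hg38 chromosome 15, 38252836 to 38357249) the levels were 30.8, 34.7 and 29.7 CPM and 36.4, 41.6 and 39.4 CPM. In both genes the groups were apart by less than the range within the control group. SPRY2 rose 1.22-fold (log2 fold change 0.28, standard error 0.08, edgeR adjusted p = 0.046) and SPRED1 1.23-fold (0.30, standard error 0.08, adjusted p = 0.0452), just past the threshold. The SPRY2 call was lost in 8 of 15 alternatives and the SPRED1 call in 7, including each fit that left out control replicate 1 or a library with USAG-1 overexpression, where the SPRY2 log2 fold change was 0.23 to 0.32 and that of SPRED1 0.26 to 0.35. SPRY2 was also not called without control replicate 2 (0.27). Without control replicate 3 both were called (SPRY2 0.34, adjusted p = 0.00597, and SPRED1 0.26, adjusted p = 0.0337).

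SPRY1 (ENSG00000164056; hg38 chromosome 4, 123396795 to 123403755) had few counts, 80, 96 and 76 in control and 101, 106 and 90 in USAG-1-overexpressing cells, or 1.92, 1.95 and 1.78 CPM against 2.20, 2.43 and 2.09 CPM. The groups did not overlap, yet the difference did not pass the test. The log2 fold change was 0.25 (standard error 0.19, edgeR adjusted p = 0.415) with a 95% interval from -0.18 to 0.68, a range that holds no change as well as rises of the size seen in DUSP6. No alternative called SPRY1.

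ETV4 and ETV5 are transcriptional activators of the PEA3 group of ETS factors, induced by ERK and FGF signaling and known in kidney development for their part in branching of the ureteric bud. Both rose in USAG-1-overexpressing cells.

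ETV5 (ENSG00000244405; hg38 chromosome 3, 186046314 to 186110318) had 46.5, 50.0 and 51.0 CPM in the control replicates and 81.7, 80.6 and 80.4 CPM in the USAG-1-overexpressing replicates. Its 3 libraries with USAG-1 overexpression were nearly alike, and all lay far above the controls. The rise was 1.65-fold (log2 fold change 0.72, standard error 0.06, edgeR adjusted p = 4.36e-04), the smallest adjusted p of the 10 genes, and it was called in all 15 alternatives. DGKG, which overlaps ETV5 on the same strand, had 755 to 910 counts in control and 1132 to 1188 with USAG-1 overexpression, a log2 fold change of 0.47 (adjusted p = 0.00634). Reads of the region where these genes overlap cannot be told apart from the table, and their part in either value was not tested.

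ETV4 (ENSG00000175832; hg38 chromosome 17, 43527846 to 43579620) had 20.9, 18.9 and 21.4 CPM in control and 26.6, 28.4 and 27.6 CPM in USAG-1-overexpressing cells. The gap between the groups exceeded the range within either of them. ETV4 rose 1.35-fold (log2 fold change 0.43, standard error 0.08, edgeR adjusted p = 0.00911), a call lost without replicate 2 of USAG-1 overexpression (0.41, adjusted p = 0.054). DHX8, which overlaps it on the other strand with 2287 to 2927 counts, had a log2 fold change of -0.05 (adjusted p = 0.633).

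PHLDA1 (ENSG00000139289; hg38 chromosome 12, 76025447 to 76031776), a pleckstrin homology-like protein induced by ERK and by stress, had the most counts of the 10 genes, 6530 to 9797. It had 163, 162 and 153 CPM in the control replicates and 213, 215 and 206 CPM in the USAG-1-overexpressing replicates. The gap between the groups was several times the spread within them. PHLDA1 rose 1.33-fold (log2 fold change 0.41, standard error 0.05, edgeR adjusted p = 0.00265) and was called in all 15 alternatives. Transcript lengths were not used here, so levels are compared within a gene only and not between genes.

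**Figure D2:**
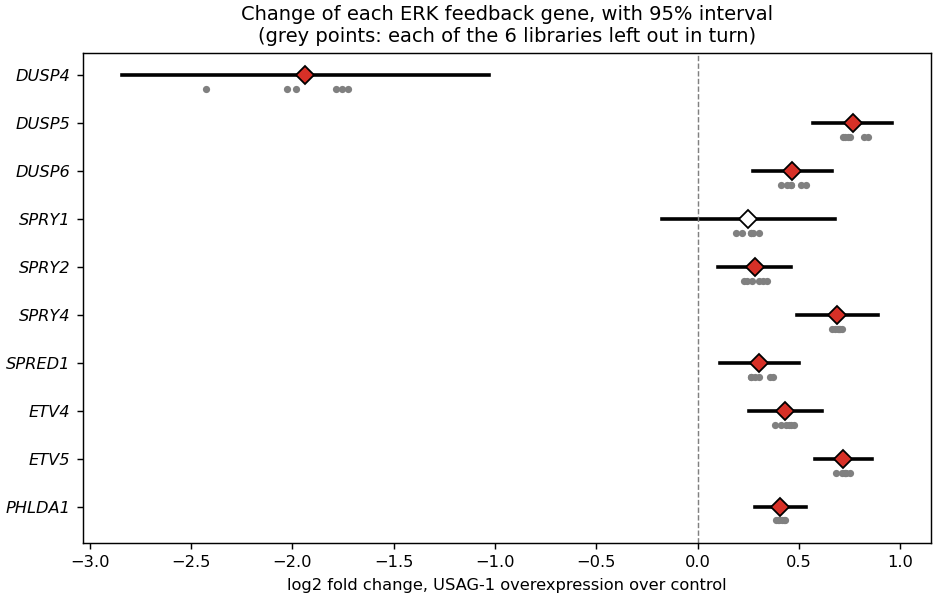
Log2 fold change of each feedback gene, USAG-1 overexpression over control (x axis), with diamonds for the estimate (filled where the adjusted p is under 0.05), lines for the 95% interval and grey points for the fits that leave out 1 library each. DUSP4 at -1.94 lies alone on the left, while 8 genes have intervals above 0 and the interval of SPRY1 spans 0.

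The sizes of the 8 rises can be set in order. DUSP5, ETV5 and SPRY4 were at log2 fold changes of 0.76, 0.72 and 0.69, with 95% intervals that overlap one another. DUSP6, ETV4 and PHLDA1 followed at 0.47, 0.43 and 0.41, and SPRED1 and SPRY2 at 0.30 and 0.28. The intervals of DUSP5 (0.57 to 0.96) and ETV5 (0.58 to 0.86) lay above those of PHLDA1 (0.28 to 0.53), SPRED1 (0.11 to 0.50) and SPRY2 (0.10 to 0.46). That of SPRY4 (0.49 to 0.89) lay above that of SPRY2 alone. The intervals of all neighbours in this order overlapped. The median log2 difference of the 10 genes from their control mean was 0.03, 0.00 and -0.06 in the control libraries and 0.40, 0.46 and 0.38 in the libraries with USAG-1 overexpression. Every library with USAG-1 overexpression thus lay above every control on this median. That follows largely from the 9 genes in which the groups were already apart in this direction.

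**Figure D3:**
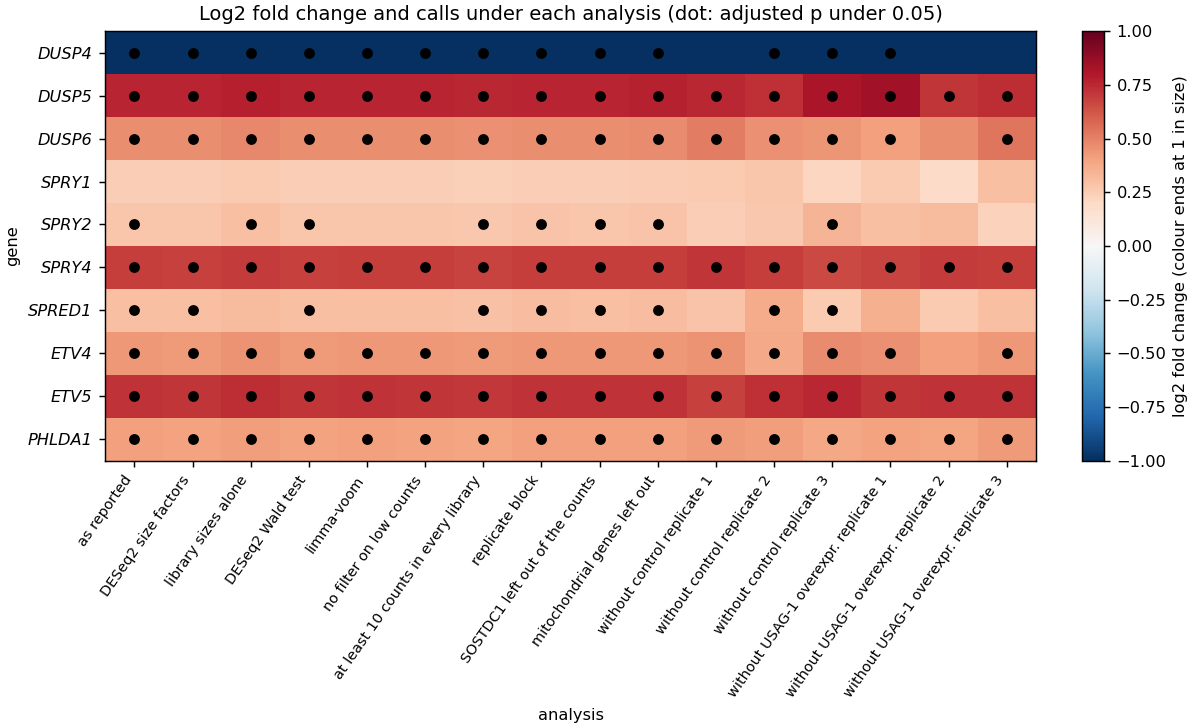
Log2 fold changes of the 10 feedback genes (rows, colour scale ending at 1 in size) under the reported fit and 15 alternatives (columns), with dots for an adjusted p under 0.05. DUSP5, SPRY4, ETV5 and PHLDA1 carry a dot in every column, SPRY1 in none, and the column without replicate 2 of USAG-1 overexpression has 4 dots.

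Relatives of the 10 genes were looked at as a list of 13. Of these, 4 were higher (ETV1, SPRED2, SPRED3 and DUSP8), 0 were lower and the median log2 fold change was 0.06. Over all genes tested, 8.95% were called higher and 6.91% lower. ETV1, which also belongs to the PEA3 group, had 18.2, 19.1 and 16.3 CPM in control and 38.03, 42.7 and 36.0 CPM with USAG-1 overexpression. The log2 fold change of 1.12 (standard error 0.09, edgeR adjusted p = 4.41e-04) exceeded that of every member and was called in all 15 alternatives. SPRED2, which like SPRED1 restrains RAS, had 63.5, 62.7 and 70.5 CPM and 87.4, 95.4 and 95.7 CPM, a log2 fold change of 0.50 (adjusted p = 0.00328). Other relatives did not pass the test, with values from -0.40 in SPRY3 to 0.47 in DUSP1, and 8 of the 13 relatives had positive log2 fold changes. The list had 6 calls without control replicate 3, where 27.0% of all genes were called. It had 2 without any 1 of the other libraries, where 5.98 to 10.2% were called.

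The phosphatases that act mainly on p38 and JNK, the stress-activated relatives of ERK, gave 1 call among 4 genes, beside 15.9% of all genes tested. Their median log2 fold change was 0.33. These genes, DUSP1, DUSP8, DUSP10 and DUSP16, are also counted among the relatives above. DUSP8 had 2.71, 2.76 and 2.93 CPM in control and 4.44, 3.80 and 4.75 CPM with USAG-1 overexpression (log2 fold change 0.63, standard error 0.16, edgeR adjusted p = 0.0343). It lost its call in 7 of 15 alternatives, among them each fit without a library other than control replicate 3. DUSP10, at 0.19 (adjusted p = 0.103), was called without control replicate 3 (0.25, adjusted p = 0.00666), where the list had 3 calls. Any other library left out gave 0 calls. The share of all genes called was 27.0% without control replicate 3 and 5.98 to 10.2% in those other fits.

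Other known output genes of ERK moved both ways. Of 20 such genes, 7 were higher and 6 lower, beside 8.95% and 6.91% of all genes tested. Their median log2 fold change was 0.11. Between 9 and 14 were called across the alternatives, which called 5.98 to 27.0% of all genes. The higher genes included GDF15, a stress-induced secreted factor, with 37.2, 33.9 and 43.9 CPM in control and 79.4, 78.6 and 84.7 CPM in USAG-1-overexpressing cells (log2 fold change 1.08, standard error 0.10, edgeR adjusted p = 5.67e-04). ERRFI1, a feedback inhibitor of the EGF receptor, rose by 0.48 on the log2 scale (adjusted p = 0.00211). EPHA2, EPHA4, IER3, MAFF and HBEGF also rose, whereas the genes that fell included LIF, IL11, SH2B3, HMGA2 and ELL2, and CCND1 (-0.02) and FOSL1 (0.06) did not pass the test.

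Immediate-early genes, which ERK and other kinases switch on within minutes, gave 3 calls of 11 tested, all higher. Among all genes tested, 15.9% were called and 8.95% were called higher. JUN, an AP-1 subunit, had 157, 165 and 169 CPM in control and 232, 262 and 252 CPM with USAG-1 overexpression (log2 fold change 0.60, standard error 0.06, edgeR adjusted p = 0.00113). ATF3, a stress-induced factor, had a log2 fold change of 1.01 (adjusted p = 0.00195) and EGR1 one of 0.80 (adjusted p = 0.0063). FOS (-0.18), FOSB (0.05) and JUNB (-0.36) did not pass the test. The median was 0.06 and became 0.39 without control replicate 3, and the number of calls was 3 or 4 in every alternative.

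**Figure D4:**
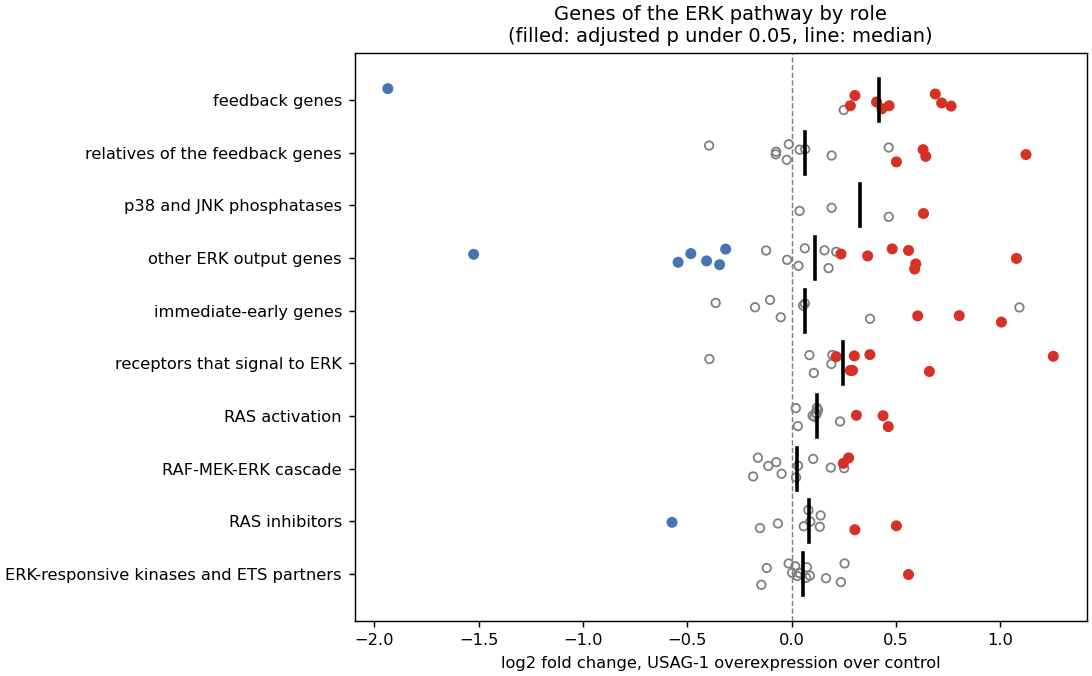
Log2 fold changes, USAG-1 overexpression over control (x axis), of tested genes of the ERK pathway grouped by role (rows), with filled points for an adjusted p under 0.05 (red higher, blue lower), open points for the rest and black lines for medians. The median of the feedback genes is 0.42, those of the other groups lie between 0.03 and 0.33, and the group of other ERK output genes holds filled points on both sides. The p38 and JNK phosphatases and SPRED2 are shown again among the relatives.

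Upstream of the feedback genes stand the receptors that signal to ERK. Of 12 receptor genes tested, 7 were higher (EGFR, ERBB2, ERBB3, MET, FGFR1, FGFR2 and INSR), 0 were lower and the median log2 fold change was 0.25. The shares over all genes tested were 8.95% higher and 6.91% lower. FGFR2 had 15.5, 19.1 and 17.4 CPM in control and 26.6, 26.1 and 29.5 CPM in USAG-1-overexpressing cells (log2 fold change 0.66, standard error 0.10, edgeR adjusted p = 0.00423). MET, the receptor of hepatocyte growth factor, had 315, 311 and 303 CPM and 387, 394 and 363 CPM (0.30, adjusted p = 0.00913), a call lost without replicate 1 or 2 of USAG-1 overexpression. The number of receptor calls varied with the library left out. It was 10 without control replicate 3 (27.0% of all genes called) and 3 without control replicate 1 or 2 (10.2% and 8.74%). It was 2 without replicate 1 or 3 of USAG-1 overexpression (6.92% and 7.09%) and 1 without its replicate 2 (5.98%).

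Next come the genes of the relay itself, where the share called over all genes tested, 15.9%, is the background. Among 12 genes of RAS activation, 3 were higher (GAB1, HRAS and SHOC2) and the median log2 fold change was 0.12. GAB1, a docking protein, had 10.2, 9.63 and 8.02 CPM in control and 13.3, 12.4 and 12.7 CPM in USAG-1-overexpressing cells (0.46, edgeR adjusted p = 0.0355), and SHOC2, which helps to activate RAF, had a log2 fold change of 0.31 (adjusted p = 0.0407). These 3 calls became 5 without control replicate 3, 1 without control replicate 1 and 0 without any 1 of the other libraries. Among 12 genes of the RAF, MEK and ERK tier, ARAF (0.27, adjusted p = 0.026) and the scaffold IQGAP1 (0.25, adjusted p = 0.0277) were higher, while MAP2K1 (-0.16) and MAPK3 (0.03), which encode a MEK and an ERK kinase, did not pass the test. The median of this tier was 0.03. There were 0 calls without control replicate 2 or without any 1 library with USAG-1 overexpression. There was 1 without control replicate 1 and there were 3 without control replicate 3. Of all genes, 27.0% were called without control replicate 3, 10.2% without control replicate 1 and 5.98 to 8.74% without any 1 other library.

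The last lists hold inhibitors of RAS and factors downstream of ERK, with the same background of 15.9%. Of 10 RAS inhibitors, SPRED2 (also counted among the relatives above) and NF1 were higher and RASA3 was lower, with a median log2 fold change of 0.08. RASA3, a GTPase-activating protein, had 26.8, 26.2 and 26.8 CPM in control and 18.9, 17.7 and 17.1 CPM in USAG-1-overexpressing cells (log2 fold change -0.57, edgeR adjusted p = 0.00243). Of 14 tested genes of ERK-responsive kinases and ETS partners, only CIC was called. It is a repressor that ERK inactivates, and genes it is known to hold down include ETV1, ETV4, ETV5, DUSP6 and SPRY4. CIC had 71.5, 70.1 and 67.8 CPM in control and 103, 102 and 104 CPM with USAG-1 overexpression (log2 fold change 0.56, standard error 0.05, edgeR adjusted p = 8.00e-04). The transcript of this repressor was thus higher in the same libraries as those of ETV1, ETV4, ETV5, DUSP6 and SPRY4. In these libraries DUSP4 was lower (log2 fold change -1.94, edgeR adjusted p = 0.0146). Whether CIC is linked to any of these transcripts was not tested. RPS6KA5 was at 0.25 (adjusted p = 0.084) and was called without control replicate 3 (0.29). In that fit this list had 6 calls and 27.0% of all genes were called.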

How the data were processed

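Poly(A) RNA of 3 control and 3 USAG-1-overexpressing HK-2 cultures was sequenced as paired ends, from libraries that mark strand. The authors deposited raw read counts per gene, used as deposited, and the submitters' processing notes name cutadapt 1.9, FastQC and hg38. The counting tool and its use of strand are not given in the sources used here. No group was assigned from anything but the labels. Within each group, no pair of libraries agreed within sampling noise (chi-square per degree of freedom at least 6.52), and pairs across groups were not compared in this way.

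Counts were filtered with filterByExpr, scaled by TMM and tested with the quasi-likelihood test of edgeR 4.0.16 in R 4.3.3, with Benjamini-Hochberg adjustment over the 18188 genes tested, which hold 99.9% of counts. A gene was called at an adjusted p under 0.05 and any fold change. Standard errors were taken from the F statistic, whose square root scales the log2 fold change. Scripts were tested on simulated data. The alternatives were DESeq2 size factors, library sizes alone, the DESeq2 1.42.0 Wald test, limma-voom (limma 3.58.1), no filter, at least 10 counts in every library, the replicate number as a block, SOSTDC1 or mitochondrially encoded genes left out, and each library left out in turn.

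The 10 genes and all other lists were chosen with earlier results of these data known. Named genes are the 10, SOSTDC1 and the 2 tested genes of smallest p in each other list, to which further genes were added after their values were seen. Sequences and transcript lengths were not used here, so levels were not ordered between genes.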

Additional observations from a re-analysis of the deposited data

How the results depend on the processing

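All 10 feedback genes and SOSTDC1 kept their direction in every alternative that tested them. So did 27 other genes, the 2 of smallest p in each other list (marker lists included) with DGKG and DHX8. Most of those 27 were chosen for the smallest p in their list, which favours a stable direction. The further genes named in the text, such as EGR1, FOS, CCND1 and MAPK3, were not followed singly across the alternatives. DUSP5, SPRY4, ETV5 and PHLDA1 kept their call in all 15. SPRY2 lost its call with DESeq2 size factors (log2 fold change 0.28, adjusted p = 0.0519), limma-voom (0.28, adjusted p = 0.0517) and no filter (0.28, adjusted p = 0.0912), and SPRED1 with library sizes alone (0.32, adjusted p = 0.0545), limma-voom (0.30, adjusted p = 0.0533) and no filter (0.30, adjusted p = 0.0883). The cause was not tested. With no filter, 6.26% of genes were called. Calls then numbered 2 among relatives of the feedback genes, 0 in RAS activation and 1 in the RAF, MEK and ERK tier. There were 4 among receptors and 0 among p38 and JNK phosphatases, which had 2 with library sizes alone.

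Leaving out 1 library at a time gave 1137 to 5091 calls among all genes (2884 with all libraries) and 4 to 9 among the feedback genes (4 to 8 as higher), with log2 fold changes of -2.43 to -1.72 for DUSP4, 0.41 to 0.53 for DUSP6, 0.23 to 0.34 for SPRY2, 0.26 to 0.37 for SPRED1 and 0.38 to 0.48 for ETV4. Calls ranged from 2 to 6 in relatives, 0 to 5 in RAS activation, 0 to 3 in the RAF, MEK and ERK tier, 1 to 6 in ERK-responsive kinases and ETS partners, 1 to 10 in receptors and 0 to 3 in p38 and JNK phosphatases. Calls among HK-2 epithelial markers ranged from 2 to 8.

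Calls among all genes were 2034 with no filter and 3761 with DESeq2. The same replicate numbers did not pair the libraries (correlations of deviations 0.07, -0.05 and 0.04, and not every library correlated best with its own number). With the replicate block, 2381 genes were called, the same 9 feedback genes among them, with 2 relatives and 0 p38 and JNK phosphatases. With 11 to 72 counts in a library, DUSP4 is the gene most limited by depth.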
